A study of Mus musculus with 12 samples.

Results

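The genotype by DSS interaction in mouse colonocytes asks, gene by gene, whether the effect of losing C15ORF48/miR-147 on RNA level differed between mice given dextran sodium sulfate (DSS) and untreated mice. It was taken over all 12 RNA-seq libraries of the series, 3 in each of 4 groups, and over 11306 genes. The groups were knockout (KO) colonocytes from mice given 3% DSS for 3 days (KO DSS), wild-type (WT) colonocytes from mice on the same DSS course (WT DSS), KO colonocytes from untreated mice (KO untreated) and WT colonocytes from untreated mice (WT untreated). KO stands for cells that lack the C15ORF48/miR-147 locus, and WT for cells that have it. The treatment field of the labels reads none for the untreated libraries, while the protocol text, the same for all 12, names DSS, and the field was followed. The sources used here give no strain, no age and no method of deletion. They also do not say whether replicates are different animals, and each p-value then measures the spread between these libraries only. The genes followed most closely are the 38 whose KO minus WT difference had opposite signs in the 2 conditions at a size of 0.5 or more in both, on the log2(RPKM + 1) scale. RPKM is the read count of a gene divided by its length and by the depth of the library.

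C15ORF48 is a small mitochondrial protein that can replace NDUFA4, a subunit of respiratory complex IV, and the microRNA miR-147 lies in the same transcript. DSS is a sulfated polymer that injures the lining of the colon when it is put in the drinking water, and it is a standard model of colitis. The colon epithelium holds absorptive colonocytes, which take up salt and water, and secretory cells, among them goblet cells, which make mucus, and deep crypt secretory cells, which make Reg4 and other secreted lectins. Early in injury the epithelium is known to turn on secreted antibacterial proteins such as the Reg3 lectins and RELMβ (Retnlb). The interaction is the KO minus WT difference under DSS minus the KO minus WT difference untreated. A positive value means that KO stood higher relative to WT under DSS than untreated. The DSS libraries and the untreated libraries were deposited in separate tables, so DSS and the table cannot be told apart in any value of the interaction.

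The labels held where they could be checked. AA467197, the mouse gene of C15ORF48 (chr2:122636986-122641191, plus strand, GRCm38), had 6.54, 7.33 and 9.19 RPKM in KO DSS libraries, against 403, 370.0 and 515 RPKM in WT DSS libraries. Untreated, AA467197 had 5.67, 4.35 and 4.03 RPKM in KO untreated libraries, against 430.0, 442 and 430.0 RPKM in WT untreated libraries. KO libraries held very little of it, and its interaction was 0.64 (SE 0.21, limma adjusted p = 0.129), not called. Ndufa4 averaged 1002 ± 315 RPKM in KO DSS and 303 ± 60.2 in WT DSS, against 693 ± 68.4 RPKM in KO untreated and 251 ± 28.1 in WT untreated (SD, n = 3 each), and its interaction was 0.23 (SE 0.29, limma adjusted p = 0.688), with a 95% interval of −0.40 to 0.87, and −0.01 without KO DSS replicate 1. Colonocyte markers were abundant in every library (Car1 at 3319 to 14066 RPKM and Krt20 at 345 to 1041 RPKM), while the glial gene Sox10 was listed at 0 in 11 libraries and 0 of 11 B and plasma cell markers reached 1 RPKM in any. The deposited values correspond to 12621697 to 16707030 reads per DSS library and 20606918 to 26839250 per untreated library, and 4 Y-linked genes were listed at 0 throughout. The spread within a group was wider under DSS, with a median residual SD of 0.187 in KO DSS and 0.151 in WT DSS, against 0.116 in KO untreated and 0.112 in WT untreated, on the log2 scale.

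Of the 11306 genes, 158 were called in the interaction (1.4%) by limma at a Benjamini-Hochberg adjusted p under 0.05. The genotype difference was higher under DSS in 84 of them (0.743%), among them the membrane sorting protein Mal, the bile acid transporters Slc51a and Slc10a2 and the cytochrome P450 genes Cyp2c65 and Cyp2c66. It was lower under DSS in 74 (0.655%), among them the serotonin transporter Slc6a4, the sodium channel subunit Scnn1a, the sialic acid enzyme Gne and the alcohol dehydrogenase Adh1. The called interactions had a median size of 1.04 among the higher and 1.01 among the lower. At an unadjusted p under 0.05 there were 2152 genes (1071 higher, 1081 lower), or 19%.

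In 156 of the 158 called genes the genotype difference changed sign between the conditions, against 50.7% of all genes tested (5737), and the DSS difference was the larger of both in 151. An interaction is large where the terms have opposite signs, so the share of called genes that change sign is set in part by the test itself. In the same 12-library fit, 148 of the 158 were also called for KO against WT under DSS, where 615 genes were called in all (5.44%), and 0 for KO against WT untreated, where 1 gene was called (0.00884%). The KO and WT libraries did not overlap under DSS for 157 of them and untreated for 67, against 22.9% and 15.9% of all genes tested. Both held for 66, each with opposite directions. Over all genes, 339 did not overlap in either condition and stood in opposite directions (3%), and 70 stood in the same direction (0.619%).

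The count of called genes rested on single libraries. Without KO DSS replicate 3, WT DSS replicate 1 or 2, KO untreated replicate 2, 4 or 5 or WT untreated replicate 3, between 1 and 4 genes were called. Without WT untreated replicate 1 or 2 it was 43 and 39, without KO DSS replicate 2 it was 144, and leaving out WT DSS replicate 3 gave 300. Leaving out KO DSS replicate 1 gave 425. Slc6a4 was the gene called in all 12 of these fits, and 4 genes were called in 6 or more. The sign of the interaction held in every one of these fits for all 158 genes. The median adjusted p of the called genes was 0.0378 and the smallest, that of Slc6a4, was 0.00634.

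**Figure D1:**
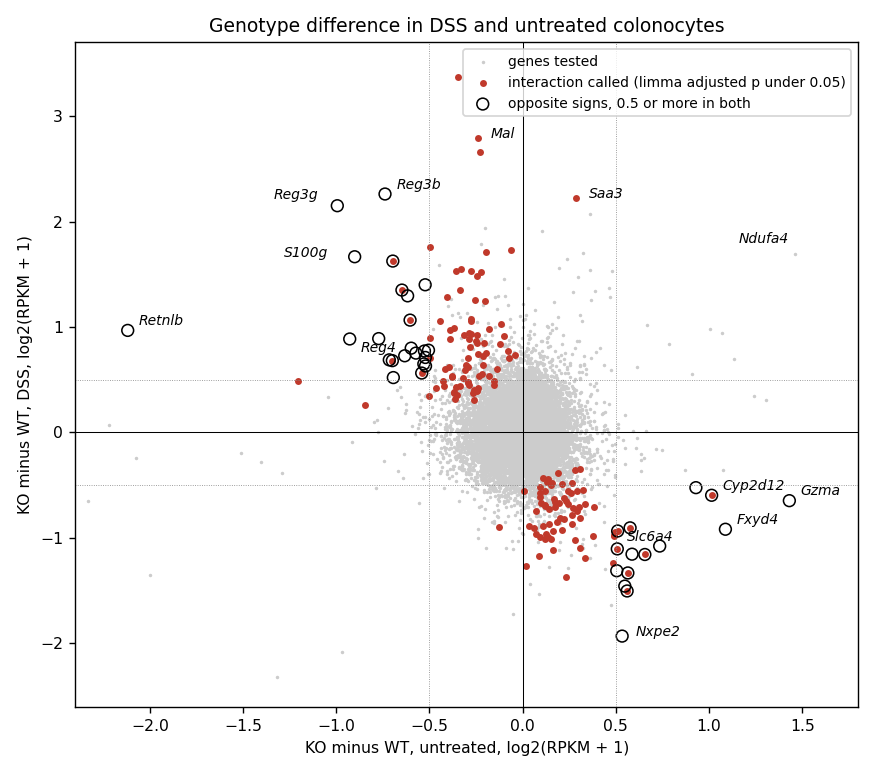
KO minus WT difference of each gene tested in untreated (x axis) and DSS (y axis) colonocytes, both on the log2(RPKM + 1) scale, with genes called in the interaction in red and the 38 genes of opposite sign at 0.5 or more circled (dotted lines at ±0.5). Called genes lie mostly in the upper left and lower right quadrants and spread further along the DSS axis. AA467197 lies outside the axes.

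**Figure D2:**
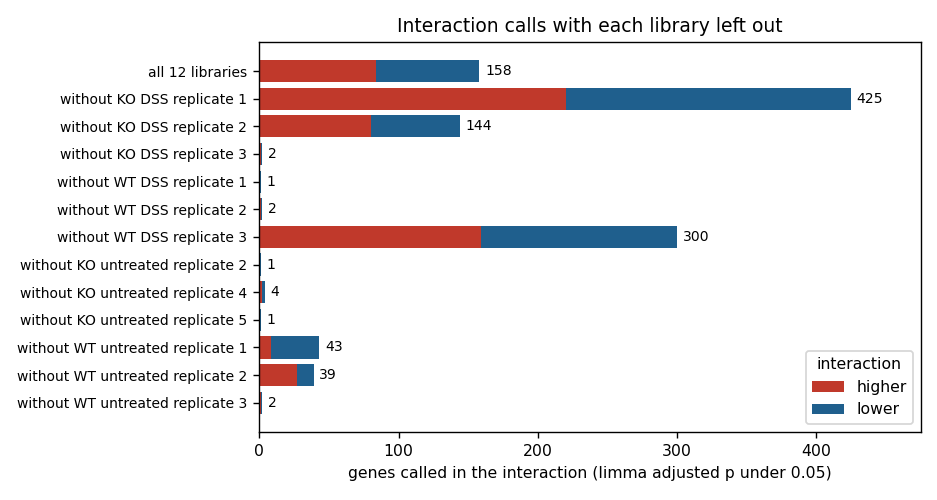
Number of genes called in the interaction (x axis) in the fit of all 12 libraries and in fits without each library in turn (rows), split into genes with a higher and a lower interaction. The count was 158 with all libraries and ran from 1 to 425 without 1 of them.

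Slc6a4, which takes serotonin back up into the epithelium, crossed over between the conditions. It had 6.15, 7.29 and 6.76 RPKM in KO DSS libraries, against 13.4, 14.3 and 15.1 RPKM in WT DSS libraries. Untreated, Slc6a4 had 11.5, 10.6 and 11.5 RPKM in KO untreated libraries, against 9.13, 7.48 and 6.65 RPKM in WT untreated libraries. All KO libraries were below all WT libraries under DSS and above all of them untreated. Its mean was 0.472 of WT under DSS and 1.45-fold that of WT untreated, and its interaction was −1.47 (SE 0.16, limma adjusted p = 0.00634), with a 95% interval of −1.82 to −1.13. Across the fits without 1 library the interaction stayed between −1.58 and −1.38 with an adjusted p of at most 0.0422. The gene lies at chr11:76998603-77032340, plus strand (GRCm38, GENCODE vM21).

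Of the 38 genes of opposite sign at 0.5 or more in both conditions (0.336% of the genes tested), 23 stood higher in KO under DSS and lower in KO untreated, and 15 the other way round. The sizes of both differences chose these genes, so their values are a description, and nothing is read from how many of them passed the test. Of the 38, 12 were called in the interaction (5 higher, 7 lower), against 1.4% of all genes tested. KO and WT did not overlap under DSS in 26 of them, untreated in 16, and in both conditions in 10. Over all genes tested these shares were 22.9%, 15.9% and, in opposite directions, 3%. The choice of the 38 by the size of their differences raises all these counts. Both signs held in every fit without 1 library for 37. By comparison 15 genes had a difference of 0.5 or more with the same sign in both conditions, 8 higher in KO and 7 lower. The members nearest the threshold were Adh1 (smaller difference 0.508), Gt(ROSA)26Sor (0.505) and Sh3bgr (0.505) inside it, and Ccdc71l (0.5), Cyp2c66 (0.497) and Rgs2 (0.496) outside it. In the authors' deposited table, the log2 fold changes of all 38 had opposite signs. Those values come from the same libraries that chose the genes, so nothing is read from the agreement. At the authors' false discovery rate under 0.05 there were 10 of the 38 under DSS and 0 untreated, against 206 and 2 of all genes.

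Reg3b and Reg3g, secreted lectins, had the largest DSS differences of the genes that stood higher in KO under DSS and lower in KO untreated. Reg3g, a lectin that kills Gram-positive bacteria, had 810.0, 1772 and 1161 RPKM in KO DSS libraries, against 225, 77 and 1082 RPKM in WT DSS libraries. Untreated, Reg3g had 39, 44.7 and 126 RPKM in KO untreated libraries, against 134, 223 and 59.8 RPKM in WT untreated libraries. Under DSS, WT replicate 3 lay among the KO libraries while the other WT libraries lay below all of them, and untreated the groups overlapped. The Reg3g interaction was 3.14 (SE 1.1, limma adjusted p = 0.158) and was not called. Its paralog Reg3b had 4879, 6283 and 5011 RPKM in KO DSS libraries, against 1031, 320.0 and 4206 RPKM in WT DSS libraries. Untreated, Reg3b had 142, 144 and 717 RPKM in KO untreated libraries, against 374, 663 and 277 RPKM in WT untreated libraries. The KO DSS libraries were all above the WT DSS libraries, of which replicate 3 again stood highest, and the untreated groups overlapped. The Reg3b interaction was 3.0 (SE 1.11, limma adjusted p = 0.177) and was not called.

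The promoters of these 2 lectin genes are shown because the genes are paralogs on chromosome 6 with the largest DSS differences among the 38 genes. They run from 250 bases before to 50 bases after the gene's start (RefSeq, GRCm38.p6, 5′ to 3′ on the gene's strand), Reg3b at chr6:78370635-78370934, plus strand and Reg3g at chr6:78468825-78469124, minus strand. Capitals mark TATAAA and TTCNNNGAA, a motif that STAT proteins are known to bind, on either strand.
Reg3b promoter: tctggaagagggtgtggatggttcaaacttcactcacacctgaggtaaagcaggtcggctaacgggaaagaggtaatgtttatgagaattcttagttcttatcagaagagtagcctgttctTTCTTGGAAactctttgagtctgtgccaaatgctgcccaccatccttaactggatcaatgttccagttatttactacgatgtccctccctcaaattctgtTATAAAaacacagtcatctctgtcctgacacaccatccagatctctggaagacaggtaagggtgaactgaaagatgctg
Reg3g promoter: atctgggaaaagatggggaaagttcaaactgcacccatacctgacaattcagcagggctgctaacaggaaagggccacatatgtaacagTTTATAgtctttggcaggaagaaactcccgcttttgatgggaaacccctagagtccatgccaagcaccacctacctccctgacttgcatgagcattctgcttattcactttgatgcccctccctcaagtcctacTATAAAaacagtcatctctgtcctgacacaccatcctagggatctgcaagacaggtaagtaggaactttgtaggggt

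TATAAA begins 29 bases before the start in Reg3b and 27 in Reg3g, which holds a further match on the opposite strand 161 bases before. TTCNNNGAA begins 129 bases before the start in Reg3b, and no match lies in this window of Reg3g. Over 32851 promoters of the same length 13.6% held TATAAA and 8.3% held TTCNNNGAA on either strand. Aligned to each other, the promoters were identical at 210 of 294 positions (71.4%). A match is a description of the letters and not a measured binding site.

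Genes of deep crypt secretory cells and goblet cells were also among the 23. Reg4, the gene that marks deep crypt secretory cells, had 618, 829 and 327 RPKM in KO DSS libraries, against 234, 349 and 325 RPKM in WT DSS libraries. Untreated, Reg4 had 555, 399 and 403 RPKM in KO untreated libraries, against 753, 1082 and 756 RPKM in WT untreated libraries. KO was below WT in every untreated library, and under DSS KO replicate 3 lay inside the WT range. Its interaction was 1.81 (SE 0.41, limma adjusted p = 0.0529), just outside the threshold. Spink4, a protease inhibitor of goblet cells, had 1918, 1435 and 1206 RPKM in KO DSS libraries, against 710.0, 679 and 1082 RPKM in WT DSS libraries. Untreated, Spink4 had 1330, 776 and 1279 RPKM in KO untreated libraries, against 1405, 2462 and 1905 RPKM in WT untreated libraries. Here the groups did not overlap in either condition, and the directions were opposite, with an interaction of 1.66 (SE 0.4, limma adjusted p = 0.0614) that was not called. Retnlb, the goblet cell protein RELMβ, averaged 260.0 ± 99.3 RPKM in KO DSS and 203 ± 222 in WT DSS, against 126 ± 75.9 RPKM in KO untreated and 791 ± 717 in WT untreated (SD, n = 3 each). Its untreated difference of −2.12 was the largest in size among the 38 genes and rested on WT untreated replicates 2 and 3, at 1537 and 731 RPKM, while replicate 1 was at 106 RPKM.

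Not every secretory gene changed sign. Of 22 goblet and deep crypt secretory markers tested, 13 had opposite signs in the conditions, 14 had an interaction above 0, and 0 were called, with a median interaction of 0.19 that was −0.06 without WT untreated replicate 2. The summed level of this list was 17697 to 20972 RPKM in KO DSS, 13636 to 25347 in WT DSS, 10643 to 18214 in KO untreated and 11765 to 41326 in WT untreated libraries. The mucin Muc2 had a difference of −0.30 under DSS and 0.55 untreated, and was not called (interaction −0.85, SE 0.73, limma adjusted p = 0.543). Its groups overlapped in both conditions, with WT untreated libraries at 170, 351 and 1128 RPKM. Ang4, a Paneth and goblet cell ribonuclease, had 64.9, 49.4 and 50.7 RPKM in KO DSS libraries, against 86.5, 32.1 and 987 RPKM in WT DSS libraries. Untreated, Ang4 had 80.2, 99.2 and 532 RPKM in KO untreated libraries, against 64.7, 3144 and 1347 RPKM in WT untreated libraries. Its groups overlapped in both conditions, with WT DSS replicate 3 and WT untreated replicates 2 and 3 far above the other WT libraries, and it was not called. Of 21 antimicrobial and acute phase genes tested, 16 had an interaction above 0, 13 had opposite signs and 1, Saa3, was called (0.743% of all genes tested were called higher), with a median interaction of 0.85, a median difference of 0.52 under DSS and −0.14 untreated. The median interaction was 0.39 without WT untreated replicate 3, 0.36 with a pseudocount of 5 and 0.51 over genes with 1 RPKM in all 12 libraries, and the DSS median ran from 0.17 to 0.62 in the fits without 1 library. Over all genes tested these medians were 0.00, −0.01 and 0.01. In bulk libraries such as these, fewer cells of a type and less RNA per cell cannot be told apart.

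**Figure D3:**
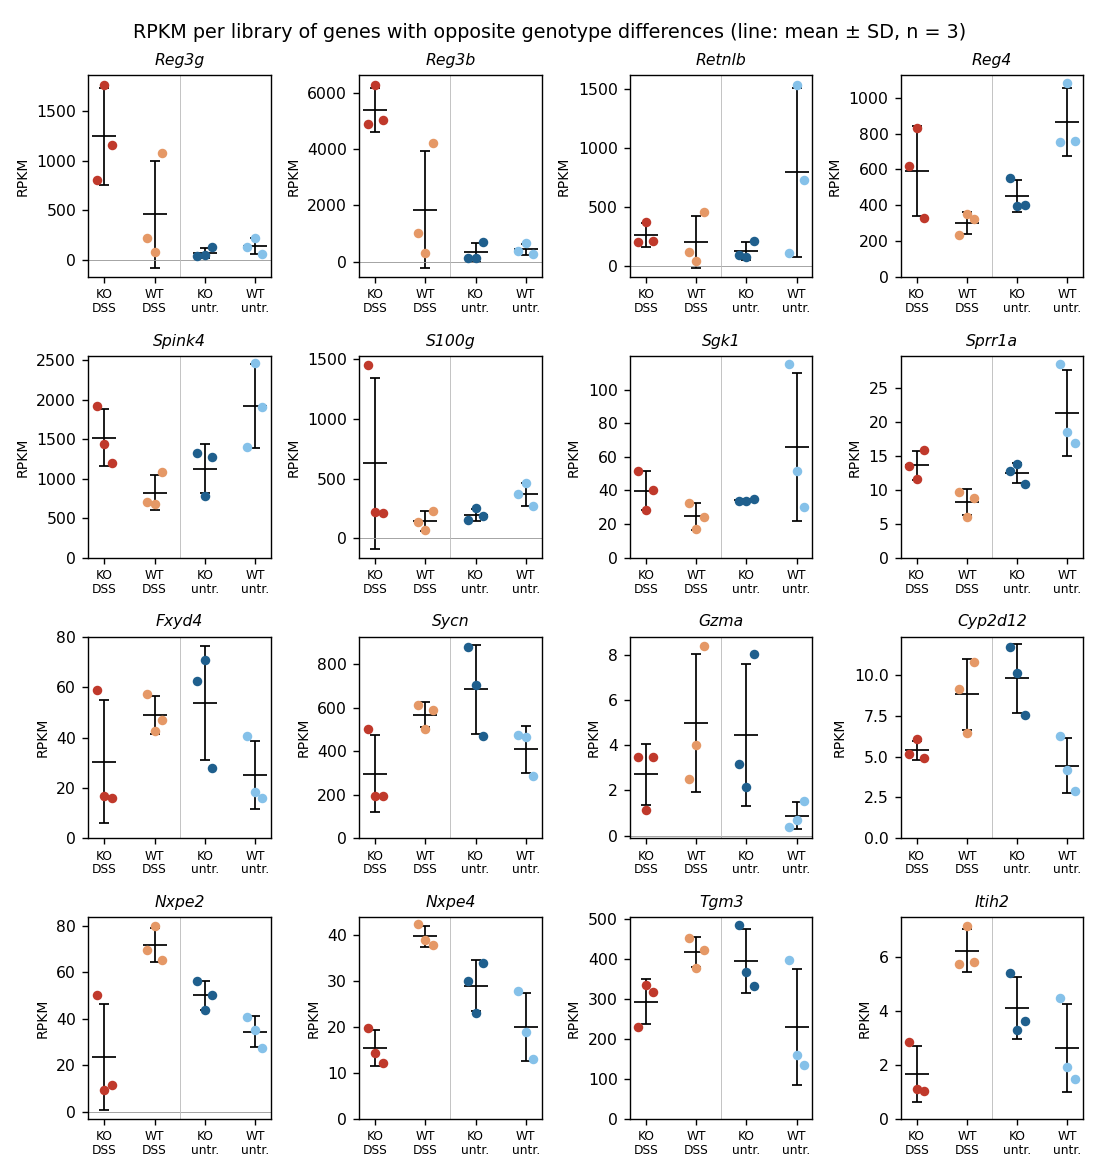
RPKM (y axis) in each library of 16 genes of opposite sign, in KO DSS, WT DSS, KO untreated and WT untreated libraries (points; horizontal lines are means and bars the SD, n = 3). In the 8 upper panels the KO mean is above WT under DSS and below it untreated, and in the 8 lower panels the reverse. For genes such as Reg3g, Reg3b, Retnlb, S100g, Sgk1, Fxyd4, Nxpe2 and Tgm3 a single library stands far from the others of its group.

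Enpep, Ncoa7, Sprr1a, Ugt8a and Tm2d1 were the 5 called genes of the 23 higher in KO under DSS and lower untreated. Enpep, the brush border peptidase that cleaves angiotensin, had 2.72, 5.99 and 5.69 RPKM in KO DSS libraries, against 0.376, 0.547 and 1.79 RPKM in WT DSS libraries. Untreated, Enpep had 2.12, 2.54 and 4.47 RPKM in KO untreated libraries, against 5.01, 5.21 and 5.89 RPKM in WT untreated libraries. The groups did not overlap in either condition and the interaction was called at 2.32 (SE 0.41, limma adjusted p = 0.0352). Ncoa7, a nuclear receptor coactivator, had 20, 22 and 26.7 RPKM in KO DSS libraries, against 9.05, 5.75 and 10.9 RPKM in WT DSS libraries. Untreated, Ncoa7 had 8.3, 12.1 and 12.4 RPKM in KO untreated libraries, against 24.2, 12.9 and 16.8 RPKM in WT untreated libraries. It too was apart in both conditions in opposite directions, with a called interaction of 2.0 (SE 0.34, limma adjusted p = 0.0331). Alpi, intestinal alkaline phosphatase, which detoxifies bacterial lipopolysaccharide, averaged 17.8 ± 7.16 RPKM in KO DSS and 10 ± 3.1 in WT DSS, against 13.8 ± 1.21 RPKM in KO untreated and 22.6 ± 6.25 in WT untreated (SD, n = 3 each), and was not called (interaction 1.36, SE 0.4, limma adjusted p = 0.106).

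S100g, the calcium-binding protein calbindin-D9k, had 1451, 222 and 209 RPKM in KO DSS libraries, against 134, 67.2 and 230.0 RPKM in WT DSS libraries. Untreated, S100g had 156, 254 and 183 RPKM in KO untreated libraries, against 375, 465 and 272 RPKM in WT untreated libraries. KO DSS replicate 1 raised its DSS difference of 1.67, while untreated all KO libraries were below all WT libraries. The interaction was not called (adjusted p = 0.149, limma). It ran from 1.65 to 3.05 in the fits without 1 library, and both signs held in all 12. Sprr1a, a cornified envelope protein that appears in stressed epithelium, had 13.4, 11.5 and 15.8 RPKM in KO DSS libraries, against 9.69, 6.05 and 8.73 RPKM in WT DSS libraries. Untreated, Sprr1a had 12.7, 13.7 and 10.8 RPKM in KO untreated libraries, against 28.5, 18.4 and 16.8 RPKM in WT untreated libraries. The Sprr1a groups were apart in both conditions and the interaction was called at 1.38 (SE 0.28, limma adjusted p = 0.038). Sgk1, the kinase that aldosterone induces to keep sodium channels at the membrane, averaged 40 ± 11.9 RPKM in KO DSS and 24.5 ± 8 in WT DSS, against 34.1 ± 0.613 RPKM in KO untreated and 65.7 ± 44 in WT untreated (SD, n = 3 each), and was not called (interaction 1.4, SE 0.54, limma adjusted p = 0.189). WT untreated replicate 1, at 115 RPKM, set its untreated difference. Clca4b, a chloride channel regulator, ran from 5.09 to 56.8 RPKM within KO DSS and was not called (interaction 1.91, SE 1.0, limma adjusted p = 0.321).

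The other genes of this direction had interactions of 1.1 to 1.92. Ugt8a, the galactosyltransferase of galactosylceramide, was called (1.67, SE 0.36, limma adjusted p = 0.0446), with 4.97 ± 1.86 RPKM in KO DSS and 1.77 ± 0.165 in WT DSS, against 3.45 ± 0.968 RPKM in KO untreated and 5.93 ± 2.4 in WT untreated (SD, n = 3 each). Tm2d1 was also called (1.1, SE 0.25, limma adjusted p = 0.0493), and its groups were apart in both conditions. The tight junction gene Cldn4 (1.4), the lectin Lgals2 (1.92), the transcription factor Maf (1.23), the tuft cell signalling gene Rgs13 (1.15) and the complement gene C3 (1.21) were not called, nor were Itpripl2, Pxdc1, Tex30 and Gt(ROSA)26Sor. C3 was at 34.1 RPKM in WT untreated replicate 3 and at 8.97 or less in the other 11 libraries, and without that library its interaction was −0.0. Of 14 tuft cell markers tested, 13 had an interaction above 0, 9 had opposite signs and 0 were called, at a median interaction of 0.28. That median was 0.11 without KO DSS replicate 3 and 0.45 without WT DSS replicate 3, and ran from 0.12 with a pseudocount of 5 to 0.81 with library quality weights.

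Of the 15 genes that stood lower in KO under DSS and higher in KO untreated, 7 were called. Cyp2d12, a cytochrome P450, had 5.18, 6.05 and 4.92 RPKM in KO DSS libraries, against 9.14, 6.47 and 10.8 RPKM in WT DSS libraries. Untreated, Cyp2d12 had 11.7, 10.1 and 7.54 RPKM in KO untreated libraries, against 6.25, 4.17 and 2.91 RPKM in WT untreated libraries. The groups were apart in both conditions and the interaction was called at −1.61 (SE 0.32, limma adjusted p = 0.0365). Neu3, the membrane sialidase that trims gangliosides, had 2.29, 1.14 and 1.21 RPKM in KO DSS libraries, against 4.18, 4.17 and 2.83 RPKM in WT DSS libraries. Untreated, Neu3 had 2.68, 1.8 and 2.42 RPKM in KO untreated libraries, against 1.65, 1.1 and 0.916 RPKM in WT untreated libraries. It was apart in both conditions with opposite directions and was called at −1.48 (SE 0.27, limma adjusted p = 0.0356). Cyp11a1, which makes pregnenolone from cholesterol, averaged 0.309 ± 0.148 RPKM in KO DSS and 1.53 ± 0.533 in WT DSS, against 1.13 ± 0.297 RPKM in KO untreated and 0.495 ± 0.184 in WT untreated (SD, n = 3 each). Its interaction was −1.44 (SE 0.23, limma adjusted p = 0.0331), on 10 to 19 reads in KO DSS libraries and 55 to 113 in WT DSS libraries. Adh1, which oxidises retinol and ethanol, averaged 477 ± 159 RPKM in KO DSS and 995 ± 109 in WT DSS, against 696 ± 109 RPKM in KO untreated and 498 ± 129 in WT untreated (SD, n = 3 each), and was called at −1.61 (SE 0.34, limma adjusted p = 0.041).

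Nxpe4 and Nxpe2 belong to one family, and human NXPE1 is known to acetylate sialic acid on colon mucins. Nxpe4 had 19.7, 14.2 and 12.2 RPKM in KO DSS libraries, against 42.2, 38.9 and 37.7 RPKM in WT DSS libraries. Untreated, Nxpe4 had 29.9, 23 and 33.9 RPKM in KO untreated libraries, against 27.7, 18.9 and 13 RPKM in WT untreated libraries. KO was below WT in every DSS library, the untreated groups overlapped, and the interaction was called at −1.9 (SE 0.33, limma adjusted p = 0.0342). Nxpe2 had 50, 9.4 and 11.8 RPKM in KO DSS libraries, against 69.6, 79.6 and 65.3 RPKM in WT DSS libraries. Untreated, Nxpe2 had 56.1, 43.7 and 50.3 RPKM in KO untreated libraries, against 40.9, 35.3 and 27.4 RPKM in WT untreated libraries. KO was below WT in every DSS library, with replicate 1 well above replicates 2 and 3, and above WT in every untreated library. The interaction was −2.47 (SE 0.61, limma adjusted p = 0.0633), not called. The gene models overlap on opposite strands of chromosome 9 (Nxpe4 at chr9:48162023-48400025, plus strand; Nxpe2 at chr9:48318006-48353454, minus strand). The libraries were stranded per the labels' protocols, but whether the authors' counting used strand is not given in the sources used here, so reads of either gene may have been counted for the other.

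Fxyd4, a regulator of the sodium pump in the distal colon, had 58.8, 16.8 and 16 RPKM in KO DSS libraries, against 57.4, 42.5 and 47.2 RPKM in WT DSS libraries. Untreated, Fxyd4 had 62.5, 71 and 28 RPKM in KO untreated libraries, against 40.6, 18.5 and 16 RPKM in WT untreated libraries. KO DSS replicate 1 lay with the WT DSS libraries, and KO untreated replicate 5 with the WT untreated libraries, and the interaction was −2.01 (SE 0.67, limma adjusted p = 0.142), not called. Hoxd13, a marker of the most distal gut, had 15, 3.72 and 3.56 RPKM in KO DSS libraries, against 16.3, 29.6 and 14.8 RPKM in WT DSS libraries. Untreated, Hoxd13 had 10.9, 14.3 and 4.32 RPKM in KO untreated libraries, against 18.3, 7.68 and 3.82 RPKM in WT untreated libraries. The library with most Hoxd13 was also the one with most Fxyd4 in KO DSS, KO untreated and WT untreated, but not in WT DSS. KO DSS replicate 1 was highest of its group for Fxyd4, Nxpe2 and Hoxd13, and KO untreated replicate 5 was lowest of its group for Fxyd4 and Hoxd13. The part that the position along the colon has in these values was not tested.

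Itih2, which binds hyaluronan outside cells, had 2.86, 1.1 and 1.03 RPKM in KO DSS libraries, against 5.75, 7.15 and 5.81 RPKM in WT DSS libraries. Untreated, Itih2 had 5.42, 3.29 and 3.64 RPKM in KO untreated libraries, against 4.49, 1.91 and 1.49 RPKM in WT untreated libraries. KO was below WT in every DSS library, the untreated groups overlapped, and the interaction of −2.06 (SE 0.42, limma adjusted p = 0.038) was the most negative of the called genes. Sycn, a protein of secretory granules, averaged 297 ± 177 RPKM in KO DSS and 568 ± 56.3 in WT DSS, against 685 ± 203 RPKM in KO untreated and 408 ± 106 in WT untreated (SD, n = 3 each), and was not called (interaction −1.81, SE 0.48, limma adjusted p = 0.078). Tgm3, a transglutaminase that crosslinks proteins at epithelial surfaces, averaged 293 ± 55.9 RPKM in KO DSS and 418 ± 38 in WT DSS, against 395 ± 79.7 RPKM in KO untreated and 230.0 ± 144 in WT untreated (SD, n = 3 each), and was not called (interaction −1.45, SE 0.45, limma adjusted p = 0.116). The remaining genes of this direction were AI854703 (−1.81, called), Sh3bgr (−1.82), Defb45 (−2.01) and Rims4 (−1.74), of which the last 3 were not called, and Defb45 had 0 to 4 reads in KO DSS libraries.

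Gzma, a protease of cytotoxic lymphocytes, had 3.5, 1.14 and 3.49 RPKM in KO DSS libraries, against 2.51, 4.02 and 8.4 RPKM in WT DSS libraries. Untreated, Gzma had 3.15, 2.16 and 8.06 RPKM in KO untreated libraries, against 0.403, 0.693 and 1.55 RPKM in WT untreated libraries. KO was above WT in every untreated library, the DSS groups overlapped, and the interaction was not called (−2.08, SE 0.61, limma adjusted p = 0.103). Of 15 T and intraepithelial lymphocyte markers tested, 11 had an interaction above 0, against the direction of Gzma, and 0 were called. The summed level of this list was 49.7 to 77.3 RPKM in KO DSS, 30 to 48.4 in WT DSS, 29.1 to 54.9 in KO untreated and 23 to 44 in WT untreated libraries. No defining T cell marker (Cd3d, Cd3e, Cd3g, Cd8a) was at 0 in any library, and the part of these cells in the Gzma values was not tested.

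Genes with less RNA in WT DSS libraries than in any other group were among the largest called interactions. St3gal5, the synthase of ganglioside GM3, had 4.38, 16.5 and 5.41 RPKM in KO DSS libraries, against 0.335, 0.53 and 0.177 RPKM in WT DSS libraries. Untreated, St3gal5 had 7.46, 10.5 and 8.52 RPKM in KO untreated libraries, against 17.3, 6.44 and 10 RPKM in WT untreated libraries. The low group was WT DSS, with 7 to 22 reads a library, and the other groups overlapped, and the interaction was 2.89 (SE 0.55, limma adjusted p = 0.0356). Mal, which sorts proteins to the apical membrane, averaged 120.0 ± 87.3 RPKM in KO DSS and 14.3 ± 4.8 in WT DSS, against 51.2 ± 14.1 RPKM in KO untreated and 61.2 ± 19.5 in WT untreated (SD, n = 3 each), with an interaction of 3.03 (SE 0.6, limma adjusted p = 0.0365). Called genes on the same chromosome lay within 50 kb of each other in few cases, Cyp2c65 and Cyp2c66 (20 kb apart on chromosome 19) among them.

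Bile acid and fat handling genes of absorptive cells were called with a positive interaction. Slc51a, the α subunit of the basolateral bile acid exporter, had 88.4, 78.5 and 98.9 RPKM in KO DSS libraries, against 26.2, 26.7 and 38.4 RPKM in WT DSS libraries. Untreated, Slc51a had 57.7, 97.3 and 92.3 RPKM in KO untreated libraries, against 113, 67.9 and 109 RPKM in WT untreated libraries. KO was above WT in every DSS library and the untreated groups overlapped, with an interaction of 1.75 (SE 0.32, limma adjusted p = 0.0356). Slc10a2, the apical bile acid importer, averaged 51.1 ± 10.4 RPKM in KO DSS and 23.9 ± 3.73 in WT DSS, against 33.7 ± 7.98 RPKM in KO untreated and 45.7 ± 7.46 in WT untreated (SD, n = 3 each), with an interaction of 1.5 (SE 0.28, limma adjusted p = 0.0356). Fabp2, a fatty acid binding protein, had 899, 839 and 773 RPKM in KO DSS libraries, against 385, 305 and 534 RPKM in WT DSS libraries. Untreated, Fabp2 had 712, 626 and 601 RPKM in KO untreated libraries, against 891, 743 and 719 RPKM in WT untreated libraries. It crossed over without overlap in either condition, with an interaction of 1.35 (SE 0.26, limma adjusted p = 0.0356). Tmigd1, an adhesion protein of the brush border, was also called (1.88, SE 0.35, limma adjusted p = 0.0356).

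Of 24 absorptive colonocyte markers tested 3 were called higher (Slc51a, Fabp2 and Tmigd1) and 0 lower, against 0.743% and 0.655% of all genes tested, at a median interaction of 0.44 that was 0.28 without KO DSS replicate 2, while Car4, Slc26a3 and Aqp8 had interactions of −0.43, −0.16 and −0.64 and were not called. The summed level of the absorptive list was 25076 to 26632 RPKM in KO DSS, 10847 to 18888 in WT DSS, 21385 to 26737 in KO untreated and 20306 to 28828 in WT untreated libraries. Every WT DSS library was below all others in this sum. Car1 alone averaged 11707 RPKM in KO DSS and 4957 in WT DSS, of mean sums of 25992 and 14804. Car4, Slc26a3 and Aqp8 averaged 534, 433 and 192 RPKM in KO DSS and 515, 411 and 192 in WT DSS. Of the 24 markers 23 had a DSS difference above 0, at a median of 0.36. The part of the sum in the values of single genes was not tested. Among 16 markers of small intestinal and proximal enterocytes, 12 had an interaction above 0, 10 had opposite signs and 1, Slc10a2, was called, at a median interaction of 0.59 (0.25 with a pseudocount of 5), with 0.26 under DSS and −0.11 untreated. Fabp6, the ileal bile acid binding protein, averaged 12.8 ± 2.29 RPKM in KO DSS and 10.2 ± 3.23 in WT DSS, against 10.6 ± 1.06 RPKM in KO untreated and 23.8 ± 8.71 in WT untreated (SD, n = 3 each), and was not called (interaction 1.38, SE 0.33, limma adjusted p = 0.0624).

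Drug and steroid metabolism genes gave 7 higher and 1 lower call among 37 tested, against 0.743% higher and 0.655% lower of all genes tested, with a median interaction of 0.43 that was 0.11 without KO DSS replicate 1. Cyp2c66 had 3.1, 9.64 and 6.98 RPKM in KO DSS libraries, against 1.2, 0.725 and 1.37 RPKM in WT DSS libraries. Untreated, Cyp2c66 had 2.15, 2.43 and 2.31 RPKM in KO untreated libraries, against 4.25, 2.89 and 3.93 RPKM in WT untreated libraries. It crossed over without overlap, with an interaction of 2.25 (SE 0.38, limma adjusted p = 0.0331). Sult1d1, a sulfotransferase, averaged 425 ± 42.3 RPKM in KO DSS and 224 ± 31 in WT DSS, against 271 ± 29.5 RPKM in KO untreated and 341 ± 69.9 in WT untreated (SD, n = 3 each), with an interaction of 1.24 (SE 0.23, limma adjusted p = 0.0356). Cyp2c65 (1.51), the glucuronosyltransferases Ugt2b5 (1.14) and Ugt2b36 (1.01), Cyp2j6 (0.77) and the efflux pump Abcg2 (0.96) made up the other higher calls, and Adh1 was the lower one. Cyp2c and Ugt2b genes are families of similar sequence, so reads may be split between their members.

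Genes of hormone cells and innate defence were called as well. Sct, the secretin gene, averaged 35.7 ± 10.3 RPKM in KO DSS and 9.8 ± 0.933 in WT DSS, against 31.1 ± 7.68 RPKM in KO untreated and 33 ± 9.6 in WT untreated (SD, n = 3 each), with an interaction of 1.79 (SE 0.35, limma adjusted p = 0.0356). Nts, the neurotensin gene, averaged 32.7 ± 10.2 RPKM in KO DSS and 10.6 ± 3.65 in WT DSS, against 15.9 ± 3.15 RPKM in KO untreated and 20.8 ± 5.51 in WT untreated, with an interaction of 1.89 (SE 0.37, limma adjusted p = 0.0365). The glucagon gene Gcg was not called (0.82, SE 0.21, limma adjusted p = 0.0707). Of 18 enteroendocrine markers tested 11 had an interaction above 0, 6 had opposite signs and 2 were called higher, against 0.743% of all genes tested. Their median interaction was 0.15, and −0.02 without KO DSS replicate 1. Saa3, an acute phase amyloid protein, had 16.5, 37.9 and 29.9 RPKM in KO DSS libraries, against 4.65, 4.56 and 5.62 RPKM in WT DSS libraries. Untreated, Saa3 had 7.83, 9.17 and 8.69 RPKM in KO untreated libraries, against 7.44, 5.01 and 8.51 RPKM in WT untreated libraries. It was above WT in all KO DSS libraries and overlapped untreated, with the same sign in both conditions and an interaction of 1.94 (SE 0.34, limma adjusted p = 0.0352).

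C1qa, a complement gene of macrophages, had 1.83, 4.92 and 2.3 RPKM in KO DSS libraries, against 0.117, 0.327 and 0.0574 RPKM in WT DSS libraries. Untreated, C1qa had 3.65, 3.21 and 2.34 RPKM in KO untreated libraries, against 4.59, 1.85 and 5.18 RPKM in WT untreated libraries. The WT DSS libraries were the low ones, with 1 to 6 reads a library, and the interaction was called at 1.91 (SE 0.42, limma adjusted p = 0.0479). Of 19 macrophage and dendritic cell markers in the files 8 were tested. C1qa was the 1 called higher, against 0.743% of all genes tested, and 6 had an interaction above 0, at a median interaction of 0.75. That median was 0.35 with a pseudocount of 5 and 0.01 over genes with 1 RPKM in all 12 libraries. The C1q partner genes C1qb and C1qc never reached 1 RPKM and were lowest in WT untreated libraries, with means of 0.588 and 0.493 RPKM in KO DSS, 0.276 and 0.211 in WT DSS, 0.255 and 0.202 in KO untreated and 0.134 and 0.113 in WT untreated. The summed level of the list was 338 to 424 RPKM in KO DSS, 275 to 339 in WT DSS, 272 to 290.0 in KO untreated and 246 to 323 in WT untreated libraries. Most of it came from other members than the defining markers (C1qa, C1qb, C1qc, Csf1r, Cd68 and Lyz2), which reached at most 7.48 RPKM. Lyz2, Cd68 and Csf1r averaged 4.95, 0.984 and 0.331 RPKM in KO DSS and 1.68, 0.565 and 0.137 in WT DSS. Untreated, they averaged 1.53, 0.506 and 0.0926 in KO and 1.22, 0.424 and 0.106 in WT. None of the defining markers was at 0, and the part of macrophages in the C1qa values was not tested.

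**Figure D4:**
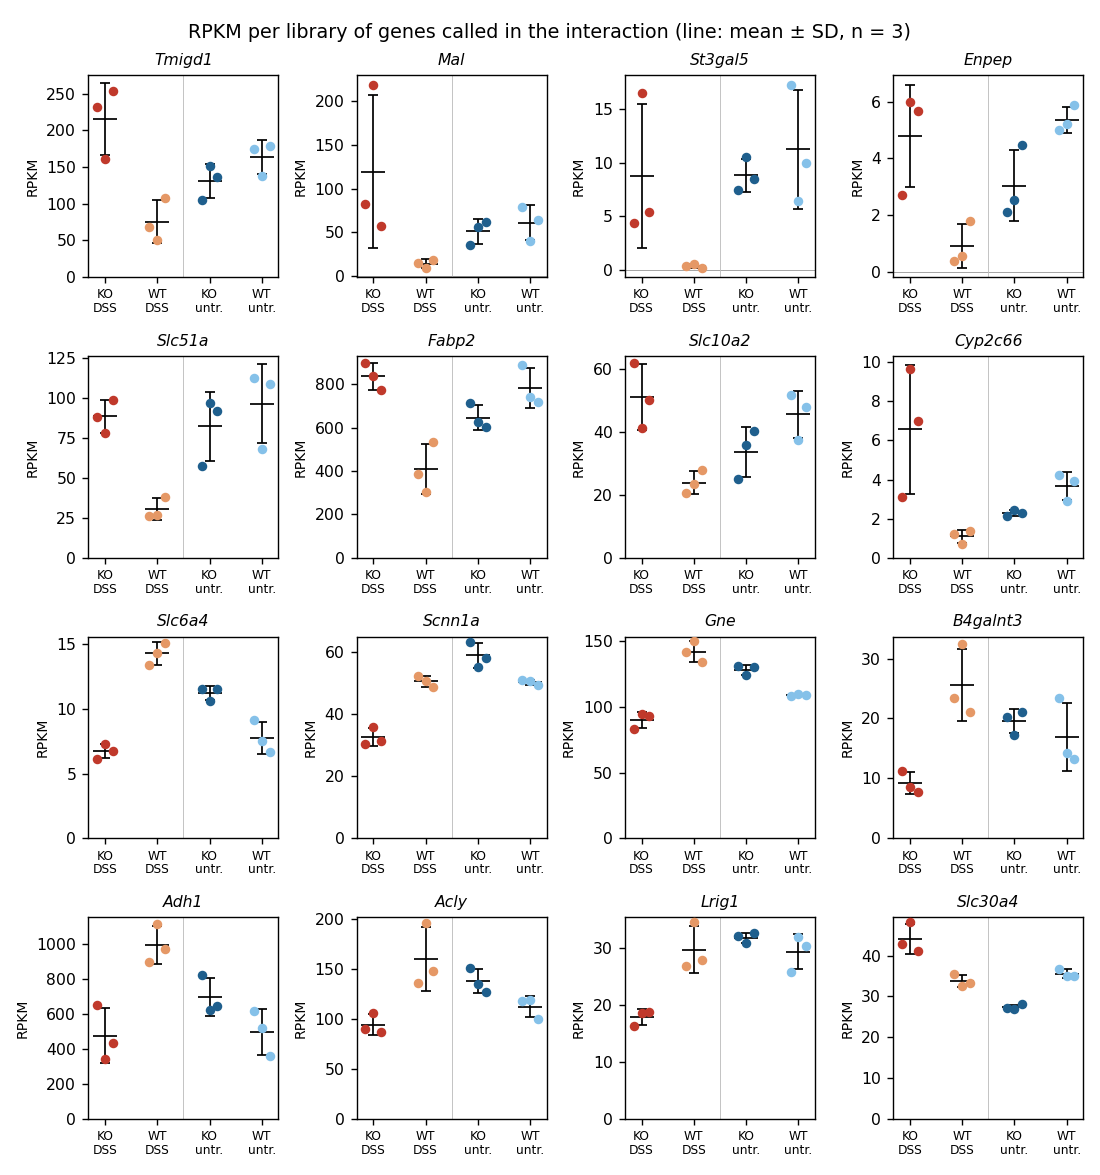
RPKM (y axis) in each library of 16 genes called in the interaction, in KO DSS, WT DSS, KO untreated and WT untreated libraries (points; horizontal lines are means and bars the SD, n = 3). WT DSS is the lowest group for Tmigd1, Mal, St3gal5, Enpep, Slc51a, Fabp2, Slc10a2 and Cyp2c66, and KO DSS is the lowest for Slc6a4, Scnn1a, Gne, B4galnt3, Adh1, Acly and Lrig1.

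The sodium channel gene Scnn1a and the chloride channel gene Ano1 were called with a negative interaction. Scnn1a, the α subunit of the epithelial sodium channel, had 30.4, 35.7 and 31.2 RPKM in KO DSS libraries, against 52.2, 50.6 and 48.6 RPKM in WT DSS libraries. Untreated, Scnn1a had 63.1, 55.1 and 58 RPKM in KO untreated libraries, against 50.8, 50.4 and 49.3 RPKM in WT untreated libraries. The groups were apart in both conditions with opposite directions, and the interaction was −0.85 (SE 0.13, limma adjusted p = 0.0331). The other channel subunits were not called, Scnn1b at −0.20 and Scnn1g at −0.33. Ano1, a calcium-activated chloride channel, averaged 21 ± 4.38 RPKM in KO DSS and 52.2 ± 12.2 in WT DSS, against 40.8 ± 4.59 RPKM in KO untreated and 40.8 ± 9.88 in WT untreated (SD, n = 3 each), with an interaction of −1.29 (SE 0.28, limma adjusted p = 0.0469). Its difference was −1.27 under DSS and 0.02 untreated. Atp12a, the colonic proton-potassium pump, had 86.1, 96.3 and 91.2 RPKM in KO DSS libraries, against 128, 104 and 118 RPKM in WT DSS libraries. Untreated, Atp12a had 130.0, 116 and 77.1 RPKM in KO untreated libraries, against 84.2, 39.8 and 36 RPKM in WT untreated libraries. KO was below WT in all DSS libraries, but the untreated groups overlapped and the interaction was not called (−1.43, SE 0.38, limma adjusted p = 0.0769). Of 27 ion and water transport genes tested, 20 had an interaction below 0, 18 had opposite signs and 2 were called lower (0.655% of all genes tested), at a median interaction of −0.31, with −0.25 under DSS and 0.08 untreated.

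Enzymes of sialic acid and glycans were called in both directions. Gne, the enzyme that starts sialic acid synthesis, had 83.2, 94.3 and 92.9 RPKM in KO DSS libraries, against 142, 150.0 and 134 RPKM in WT DSS libraries. Untreated, Gne had 131, 124 and 130.0 RPKM in KO untreated libraries, against 108, 110.0 and 109 RPKM in WT untreated libraries. The groups were apart in both conditions with opposite directions, with an interaction of −0.88 (SE 0.12, limma adjusted p = 0.0331). B4galnt3, which adds N-acetylgalactosamine to glycans, averaged 9.24 ± 1.86 RPKM in KO DSS and 25.6 ± 6.02 in WT DSS, against 19.5 ± 2 RPKM in KO untreated and 17 ± 5.68 in WT untreated (SD, n = 3 each), with an interaction of −1.6 (SE 0.3, limma adjusted p = 0.0356). The sialyltransferase St6galnac4 was also called (−1.72, SE 0.35, limma adjusted p = 0.038). Mgat4c, an N-acetylglucosaminyltransferase, had 290.0, 353 and 340.0 RPKM in KO DSS libraries, against 183, 127 and 198 RPKM in WT DSS libraries. Untreated, Mgat4c had 132, 143 and 137 RPKM in KO untreated libraries, against 187, 174 and 182 RPKM in WT untreated libraries. It was apart in both conditions and called in the other direction, at 1.36 (SE 0.21, limma adjusted p = 0.0331), and Ugt8a, described above, was also called higher. Of 32 glycosyltransferase and sialic acid genes on the list, which does not hold St6galnac4, Mgat4c or Ugt8a, 21 had an interaction below 0 and 25 had opposite signs. Of these 3 were called lower (Gne, B4galnt3 and Nxpe4) and 1 higher (St3gal5), against 0.655% lower and 0.743% higher of all genes tested, at a median interaction of −0.34.

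Lipid synthesis and crypt genes added single calls. Acly, which makes cytosolic acetyl-CoA for lipid synthesis, had 90.2, 106 and 86.8 RPKM in KO DSS libraries, against 136, 196 and 148 RPKM in WT DSS libraries. Untreated, Acly had 151, 135 and 127 RPKM in KO untreated libraries, against 118, 119 and 99.8 RPKM in WT untreated libraries. It crossed over without overlap, with an interaction of −1.04 (SE 0.2, limma adjusted p = 0.0356). Acly was the 1 call among 28 cholesterol and fatty acid synthesis genes, against 0.655% of all genes tested called lower. These 28 had a median interaction of 0.06 that was −0.10 without WT untreated replicate 2. Lrig1, a stem cell gene that restrains growth factor receptors, averaged 17.8 ± 1.39 RPKM in KO DSS and 29.7 ± 4.13 in WT DSS, against 31.8 ± 0.891 RPKM in KO untreated and 29.3 ± 3.13 in WT untreated (SD, n = 3 each), with an interaction of −0.82 (SE 0.16, limma adjusted p = 0.0365). Of 17 crypt stem cell and Wnt target genes 15 had an interaction below 0, at a median of −0.23 (−0.09 with library quality weights). Lrig1 was the 1 called, against 0.655% of all genes tested called lower. Slc30a4, a zinc exporter that lies 40 kb from AA467197, had 42.9, 48.3 and 41.2 RPKM in KO DSS libraries, against 35.4, 32.5 and 33.4 RPKM in WT DSS libraries. Untreated, Slc30a4 had 27.1, 26.9 and 28.1 RPKM in KO untreated libraries, against 36.8, 35 and 35 RPKM in WT untreated libraries. It was above WT in all KO DSS libraries and below WT in all KO untreated libraries, with an interaction of 0.74 (SE 0.12, limma adjusted p = 0.0331). Dnajb9, a chaperone of the endoplasmic reticulum, was called at 0.64 (SE 0.14, limma adjusted p = 0.041), alone among 21 ER stress genes (0.743% of all genes tested were called higher).

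The other largest negative interactions were of Hid1 (−1.53), Slc36a1, a lysosomal amino acid transporter (−1.46), and Sun2, a nuclear envelope protein (−1.44), and Epop was among the 12 largest positive ones (1.8). Hid1, which serves the sorting of secretory granules, averaged 23.2 ± 10.9 RPKM in KO DSS and 51.6 ± 10.4 in WT DSS, against 47.6 ± 3.47 RPKM in KO untreated and 37.5 ± 2.31 in WT untreated (SD, n = 3 each), and its groups were apart in both conditions. Slc36a1 averaged 17.4 ± 0.48 RPKM in KO DSS and 35.6 ± 8.45 in WT DSS, against 31.8 ± 4.31 RPKM in KO untreated and 23 ± 7.83 in WT untreated. Sun2 averaged 12.6 ± 1.9 RPKM in KO DSS and 25.1 ± 1.99 in WT DSS, against 29 ± 3.02 RPKM in KO untreated and 20.8 ± 6.11 in WT untreated. For both, KO was below WT in every DSS library and the untreated groups overlapped.

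Posterior Hox genes, which mark the distal colon, had interactions below 0. Of 8 genes of groups 10 to 13 tested, all 8 had an interaction below 0, with a median of −0.87 made of −0.84 under DSS and 0.09 untreated. Hoxa13 was the 1 called, against 0.655% of all genes tested called lower. Hoxa13 had 13.6, 13.5 and 13.8 RPKM in KO DSS libraries, against 26.2, 25.6 and 23 RPKM in WT DSS libraries. Untreated, Hoxa13 had 20.1, 15.4 and 18.4 RPKM in KO untreated libraries, against 15.6, 17.9 and 12.5 RPKM in WT untreated libraries. KO was below WT in all DSS libraries and overlapped it untreated, with an interaction of −1.04 (SE 0.18, limma adjusted p = 0.0342). Of 16 genes of groups 2 to 9, 8 had an interaction above 0 and 8 below, with a median of 0.05. Hoxb6 averaged 12.5 ± 3.39 RPKM in KO DSS and 5.29 ± 0.795 in WT DSS, against 14.9 ± 3.27 RPKM in KO untreated and 15.5 ± 2.2 in WT untreated (SD, n = 3 each), and was not called (1.14, SE 0.28, limma adjusted p = 0.0637). The sources used here do not give the position in the colon from which cells were taken, and its part in the interaction was not tested.

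Interferon, MHC class II and respiratory genes mostly kept the sign of their genotype difference. Of 38 interferon response genes tested 5 had opposite signs, 31 had an interaction above 0 and 0 were called, at a median interaction of 0.37, with 0.53 under DSS and 0.20 untreated, and was 0.17 without KO DSS replicate 3. Of 6 MHC class II genes 0 had opposite signs, and KO stood higher in both conditions (medians 1.13 and 0.43). Without 1 library these medians ran from 0.52 to 1.87 under DSS and from 0.10 to 0.59 untreated, and their median interaction of 0.67 was 0.23 without KO DSS replicate 3 and 1.18 without KO DSS replicate 1. Respiratory complex I had opposite signs in 2 of 35 genes and complex IV in 1 of 13, with median interactions of 0.29 and 0.32 and 0 calls, and medians of 0.10 and 0.17 without KO DSS replicate 1. Gene length moved with the interaction: over 10 length classes of equal size the median ran from 0.21 in the shortest genes to −0.15 in the longest. After removal of that trend complex I and complex IV both had a median of 0.10, and 553 genes were called, 151 of them shared with the 158. The 38 genes of opposite sign were short in both directions, with a median length percentile of 19.6 among those higher under DSS and 20.2 among those lower, and their count without the trend was 35. The called genes had median length percentiles of 40.3 (higher) and 61.3 (lower).

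**Figure D5:**
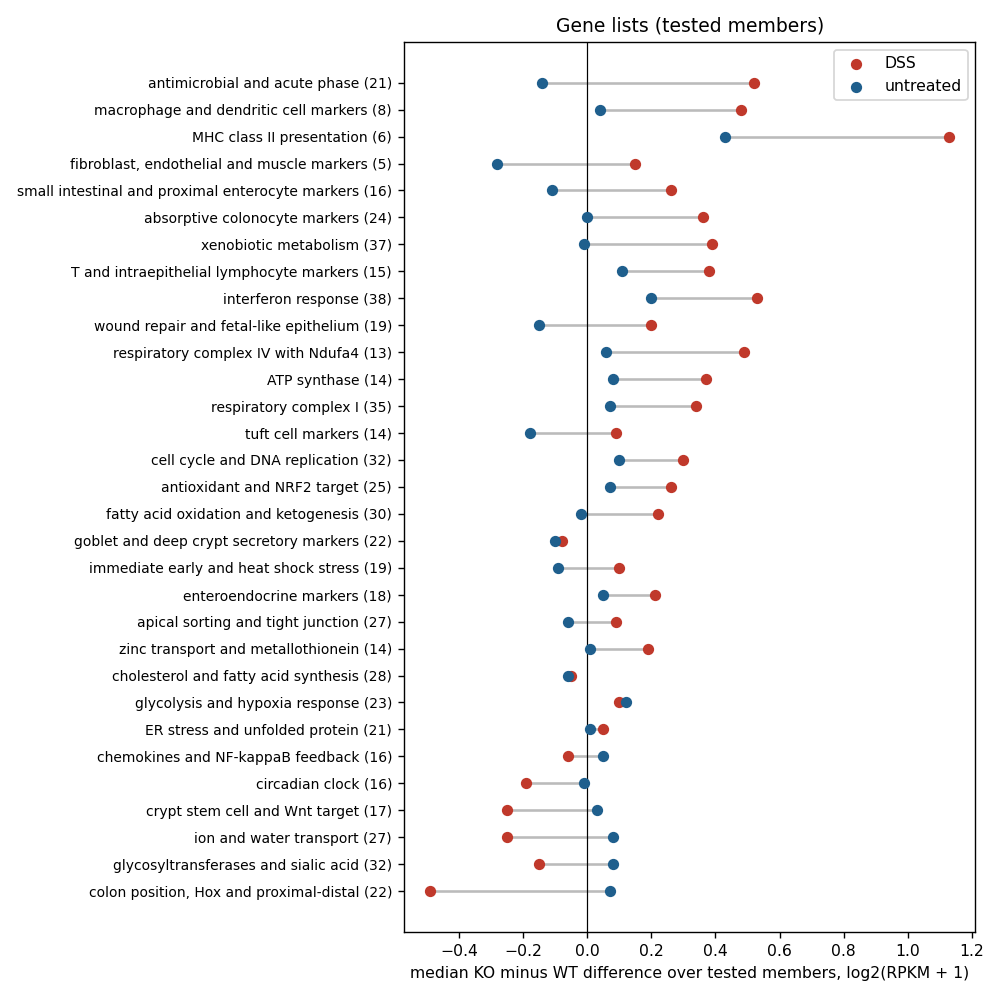
Median KO minus WT difference (x axis, log2(RPKM + 1)) over the tested members of each gene list (rows; number tested in brackets; lists with 5 or more), under DSS in red and untreated in blue, ordered by the median interaction. Antimicrobial, small intestinal and wound repair lists, for example, stand above 0 under DSS and below it untreated, and the colon position, glycosyltransferase, ion transport and stem cell lists the reverse. In fits without 1 library the untreated median ran from −0.30 to 0.03 (antimicrobial), −0.11 to 0.09 (colon position) and −0.04 to 0.12 (stem cell). It kept its sign for the other lists named here.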

How the data were processed

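Polyadenylated RNA of purified mouse colonocytes was sequenced as stranded libraries, per the labels' protocols, and aligned to GRCm38 (mm10) with TopHat2 2.1.1, with edgeR 3.30.3 also named, per the submitters' processing notes. The authors deposited RPKM values per gene in 2 tables, 1 for DSS and 1 for untreated libraries, with log2 fold changes, p-values, false discovery rates and test scores of their own, and these were used only where named. The tables were joined by gene symbol, 23790 genes, leaving out 4 lines with a repeated symbol; 26 symbols had been turned into dates and could not be named. Genes that reached 1 RPKM in at least 3 of 12 libraries (11306) were fitted as log2(RPKM + 1) with limma 3.58.1 (R 4.3.3, mean-variance trend) over all 12 libraries, with a pseudocount of 1 that understates changes of low genes. Genes were called at a Benjamini-Hochberg adjusted p under 0.05. The tables were normalised apart, so levels set across them rest on the authors' scaling. The reads behind the values came out whole within 0.02 for every gene with a read, and limma voom on them was an alternative. Other alternatives were other pseudocounts and filters, equal library medians, library quality weights, replicate blocks, removal of the length trend and leaving out each library. Named genes were AA467197 and Ndufa4, the 12 largest called interactions in each direction, the 12 members of each direction with the largest smaller difference, and up to 3 genes of opposite sign per list with the smallest interaction p, without unnamed gene models. The other members, and Hoxa13, Hoxd13, Muc2, Ang4, Car4, Slc26a3, Aqp8, Scnn1b, Scnn1g, Mgat4c, C1qb, C1qc, Ugt2b5, Ugt2b36, Cyp2j6 and Abcg2, were named after their values were seen. Members and lists were chosen with earlier results of these data known. Some results are not reported here. The steps were tested on simulated data.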

Additional observations from a re-analysis of the deposited data

Results flagged for a closer look

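The KO minus WT difference of 39 named genes differed between DSS and untreated colonocytes by the interaction test of limma (adjusted p under 0.05), and each is given with its interaction on the log2(RPKM + 1) scale. The difference was higher under DSS for Mal (3.03), St3gal5 (2.89), Enpep (2.32), Cyp2c66 (2.25), Ncoa7 (2.0), Saa3 (1.94), C1qa (1.91), Nts (1.89), Tmigd1 (1.88), Epop (1.8), Sct (1.79), Sprr1a (1.38), Slc51a (1.75), Fabp2 (1.35), Slc10a2 (1.5), Sult1d1 (1.24), Cyp2c65 (1.51), Dnajb9 (0.64), Slc30a4 (0.74), Ugt8a (1.67) and Tm2d1 (1.1). It was lower under DSS for Itih2 (−2.06), Nxpe4 (−1.9), St6galnac4 (−1.72), Adh1 (−1.61), Cyp2d12 (−1.61), B4galnt3 (−1.6), Hid1 (−1.53), Neu3 (−1.48), Slc6a4 (−1.47), Slc36a1 (−1.46), Cyp11a1 (−1.44), Sun2 (−1.44), Lrig1 (−0.82), Acly (−1.04), Scnn1a (−0.85), Ano1 (−1.29), Gne (−0.88) and AI854703 (−1.81). Slc6a4 was called in all 12 fits without 1 library, and every other gene given here was lost in at least 1 of them. Groups of 3 libraries are too small for a test of single libraries that stand apart.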

How the results depend on the processing

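The 158 calls became 168 with a pseudocount of 0.1, 122 with 5, 150 with RPKM of 1 or more in all 12 libraries, 129 with library medians equal and 175 with voom on recovered reads. They became 4 with no filter (18398 genes tested, 2689 at an unadjusted p under 0.05), 2503 with library quality weights and 553 with the length trend taken out. Without 1 library there were between 1 and 425, and the cause was not tested. The quality weight was 3.63 for KO DSS replicate 3, against 0.25 and 0.46 for replicates 1 and 2. It was 3.02 for WT DSS replicate 1, against 0.58 and 0.46 for replicates 2 and 3. The DSS difference of the weighted fit thus rested mostly on those 2 libraries. Same-numbered libraries under DSS had deviations that correlated at −0.11, 0.35 and 0.14, and differently numbered ones at −0.43 to 0.28. With groups of 3 these values cannot settle whether the numbers pair the samples. The replicate block gave 328 calls over the DSS libraries. Over 12 libraries the block left KO untreated with 1 library, since numbers 4 and 5 occur in no other group. No count of calls is given for that fit. The 38 genes of opposite sign became 76 and 15 with pseudocounts of 0.1 and 5, 93 with the replicate block over 12 libraries, 88 with voom, 340 and 0 at thresholds of 0.25 and 1, and 28 to 59 without 1 library. Of 2774 values of 127 named genes under alternatives (the replicate block over 12 libraries included), 5 changed sign, none of them a called gene's, 425 lost and 146 gained a call. Those 5 were Ndufa4 with the replicate block over 12 libraries (−0.08), with the length trend taken out (−0.02) and without KO DSS replicate 1 (−0.01, up to 0.41 without another library), Sparc with that block (−0.17) and C3 without WT untreated replicate 3 (−0.0, up to 1.87 without another). Depth limits genes such as C1qa, Cyp11a1, St3gal5 and Defb45, with 22 reads or fewer in a group. DSS and the deposited table cannot be told apart.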

Other observations

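Gene lists not described above had few calls. Of 32 cell cycle and DNA replication genes 26 had an interaction above 0 and 5 had opposite signs, at a median interaction of 0.25 (0.09 without WT untreated replicate 2) with 0 called. Of 19 wound repair and fetal-like epithelium genes 14 had an interaction above 0, at a median of 0.36 (0.19 without KO DSS replicate 3). Sprr1a was the 1 called, against 0.743% of all genes tested called higher. Of 30 fatty acid oxidation and ketogenesis genes 25 had an interaction above 0, 19 had opposite signs and 0 were called, at a median of 0.21. Of 16 circadian clock genes 10 had an interaction below 0 and 12 opposite signs, at a median of −0.18 (−0.08 without WT untreated replicate 2) with 0 called. ATP synthase genes had a median of 0.31 over 14 genes (0.11 without KO DSS replicate 1), and 1 of them changed sign. Over all genes tested 5603 interactions were above 0 and 5703 below, with 50.7% of opposite sign.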
